A study of Mus musculus with 6 samples.

Results

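The AP-1 subunits and the immediate early transcription factors were examined as 10 genes, namely *Fos*, *Fosb*, *Fosl2*, *Jun*, *Junb*, *Jund*, *Egr1*, *Egr2*, *Ier2* and *Batf3*. They were chosen by gene name, and all 10 were found among the 22248 genes of the expression table. RNAseq of resting bone-marrow-derived macrophages (BMDMs) gave 6 libraries, 3 control and 3 CITED2-deficient. BMDMs are obtained by culturing mouse marrow cells with the macrophage growth factor M-CSF. The control mice (Lyz2Cre) and the CITED2-deficient mice (Lyz2Cre Cited2 Fl Fl) are both C57BL/6 and both carry a Cre allele at the *Lyz2* locus, which is active in myeloid cells, and only the second genotype also has floxed *Cited2* alleles. The labels give an age of 10 weeks, whereas the methods of the study give a younger age for the marrow donors. The labels do not say whether the replicates come from separate mice or cultures, so the p-values measure the spread between these samples, which may be technical. No group without Cre and no stimulated BMDMs were analysed here. The comparison asks how the loss of CITED2, a nuclear coregulator that binds the coactivators CBP and p300, alters the basal mRNA levels of these factors in macrophages.

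AP-1 is a dimer of basic leucine zipper proteins. FOS proteins bind DNA well only with a JUN partner, whereas JUN proteins also pair with each other, and members of the ATF, BATF and MAF families take part in related dimers. Many AP-1 subunits and the zinc finger factors EGR1 and EGR2 are products of immediate early genes, which are transcribed within minutes of a growth factor or microbial signal without new protein synthesis, largely through serum response factor (SRF) and MAP kinases, and whose mRNAs are short-lived. JUND differs in that its mRNA is present in most resting cells. In macrophages AP-1 takes part in inflammatory and tissue-remodeling gene expression, EGR2 is known from M-CSF-driven macrophage differentiation and from alternative activation, and BATF3 is best known for its role in conventional dendritic cells of type 1 (cDC1).

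Expression was given as FPKM, the number of fragments scaled to transcript length in kilobases and to the mapped fragments of the library. Differences were tested on log2(FPKM + 1) with limma, which borrows information on the variance across genes, for the 11687 genes whose mean FPKM over the libraries reached 1. A gene was called when its Benjamini-Hochberg adjusted p over all tested genes was below 0.05. Log2 fold changes compare CITED2-deficient with control BMDMs on that scale, so changes of weakly expressed genes appear smaller than they are. Of all tested genes, 51.3% were called, 16.7% as higher and 34.6% as lower in CITED2-deficient BMDMs, and the groups did not overlap in 59.9%. Over all tested genes the log2 fold change had a median of -0.10. After median-ratio scaling between libraries it was -0.0069, and the share of higher genes among the calls moved from 32.5% to 52.0%. The libraries held 17289286 to 18952077 fragments in the control group and 22583995 to 26100410 in the CITED2-deficient group, as recovered from the FPKM steps. *Cited2* itself (chr10:17723218-17725674, mm10) read 71.7, 79.3 and 75.5 FPKM in control replicates 1 to 3 and 9.27, 7.22 and 7.53 FPKM in CITED2-deficient replicates 1 to 3. All CITED2-deficient libraries lay far below all control libraries, with a log2 fold change of -3.09 (SE 0.082, limma adjusted p = 6.57e-09).

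The promoters of *Jun*, *Fos* and *Egr2* are shown because these genes had the largest changes among the JUN, FOS and EGR members. Each start region also carries a known promoter element, and the TATA box of *Fos* is a general one. Each sequence is the coding strand of the 250 bases before a RefSeq transcription start in GRCm38.p6, the assembly called mm10, and capitals mark the element named after it.
Jun promoter, chr4:95052223-95052472, minus strand: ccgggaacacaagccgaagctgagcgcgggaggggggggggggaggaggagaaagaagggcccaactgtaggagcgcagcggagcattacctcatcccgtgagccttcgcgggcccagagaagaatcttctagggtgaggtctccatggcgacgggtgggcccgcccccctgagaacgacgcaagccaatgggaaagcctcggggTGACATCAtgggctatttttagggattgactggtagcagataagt
Fos promoter, chr12:85473640-85473889, plus strand: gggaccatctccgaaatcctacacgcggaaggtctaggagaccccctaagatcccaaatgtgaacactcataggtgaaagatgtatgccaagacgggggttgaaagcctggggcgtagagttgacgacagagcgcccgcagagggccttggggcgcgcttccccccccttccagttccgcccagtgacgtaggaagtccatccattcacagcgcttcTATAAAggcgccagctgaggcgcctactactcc
Egr2 promoter, chr10:67537619-67537868, plus strand: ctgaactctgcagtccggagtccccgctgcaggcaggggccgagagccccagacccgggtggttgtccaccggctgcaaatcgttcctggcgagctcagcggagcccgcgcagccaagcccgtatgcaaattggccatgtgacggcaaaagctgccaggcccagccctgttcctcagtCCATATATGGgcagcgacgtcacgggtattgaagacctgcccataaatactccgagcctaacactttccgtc
The capitals in *Jun* are TGACATCA at positions -45 to -38 from the start, the variant of the AP-1 and CREB motif through which JUN and ATF2 are known to act on the *Jun* gene. The capitals in *Fos* are the TATA box (TATAAA) at -33 to -28, and those in *Egr2* are a CArG box, the binding motif of SRF, at -72 to -63. The *Egr2* region lies within the annotated span of *Egr2* and downstream of other RefSeq starts of the gene, among them chr10:67537566.

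Windows of this kind were used for 8 of the 10 genes, not for *Egr1* and *Ier2*. These were 12 windows in all, since *Egr2* has 5 starts, and 7 motifs were searched on both strands. Among 32851 promoter windows of the same length, TGACATCA was present in 2.93%, the TATA box in 12.4% and the CArG box in 1.47%. A CArG box was present in 4 of the 5 *Egr2* windows, but 3 of these windows overlap and share the same site, so that *Egr2* holds 2 distinct CArG boxes. None was found in the windows of the other 7 genes, and sites beyond these 250 bases were not searched. Apart from this shared site, no matches overlapped. The EGR motif GCGNGGGCG, present in 4.70% of all windows, was found in *Fosb* at -50 to -42 and in *Fosl2* at -79 to -71. The STAT motif TTCNNNGAA, present in 7.02% of all windows, was found in *Batf3* at -239 to -231. The AP-1 motif TGANTCA (6.75% of all windows) and the CREB motif TGACGTCA (1.55%) were in none of the 12 windows. *Junb* and *Jund* held no searched motif in theirs. The *Jund* window (chr8:70697489-70697738) belongs to a RefSeq start upstream of the annotated start of *Jund* (chr8:70698949). The bases directly before that annotated start were not searched. These matches are letters in a sequence, and binding was not measured.

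Of the 10 genes, 9 passed the filter on low values and 7 were called, against 51.3% of all tested genes. *Jun*, *Junb*, *Egr2* and *Fosl2* were higher in CITED2-deficient BMDMs, against a background of 16.7% called higher, and *Fos*, *Ier2* and *Jund* were lower, against 34.6% called lower. The same 7 genes were those whose groups did not overlap, beside 59.9% of all tested genes. *Egr1* and *Batf3* were tested and not called, and *Fosb* was below the filter. The called changes were between 0.22 and 0.65 on the log2 scale in the upward direction and between -0.57 and -0.24 in the downward direction. Calls in both directions occurred within the JUN family as well as within the FOS family.

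**Figure D1:**
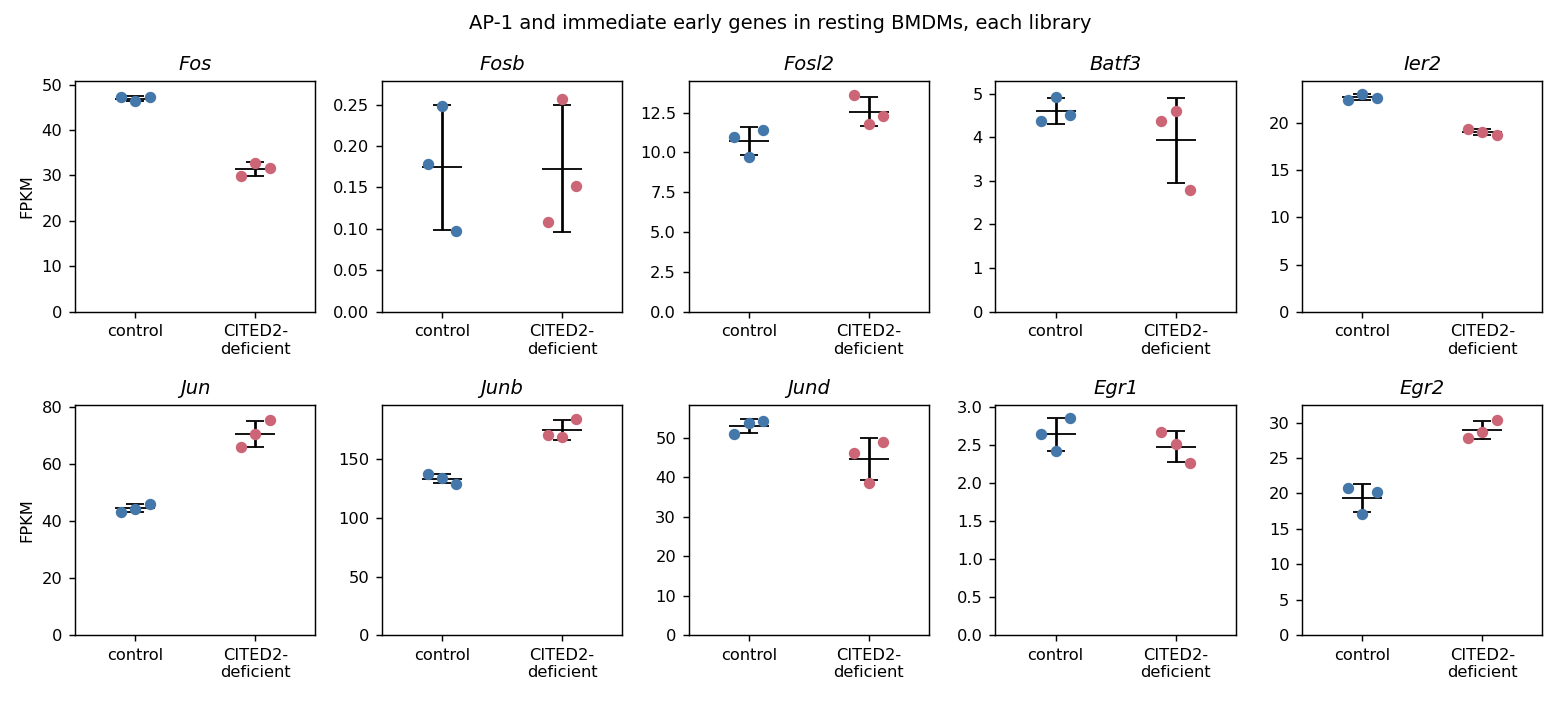
FPKM (linear axes from 0, one scale per gene) of each library, with blue points for the 3 control and red points for the 3 CITED2-deficient replicates, horizontal bars for group means and vertical bars for the SD. The points of the groups are separate for *Fos*, *Fosl2*, *Ier2*, *Jun*, *Junb*, *Jund* and *Egr2* and overlap for *Fosb*, *Batf3* and *Egr1*.

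*Jun* (ENSMUSG00000052684, chr4:95049034-95052222, mm10, minus strand), a gene of 1 exon, encodes the AP-1 subunit c-JUN, a strong transactivator that is activated by the JNK kinases. *Jun* read 43.1, 44.2 and 45.9 FPKM in control replicates 1 to 3, and 66.0, 70.3 and 75.2 FPKM in CITED2-deficient replicates 1 to 3. Each CITED2-deficient library exceeded each control library. The group means were 44.4 ± 1.39 and 70.5 ± 4.57 FPKM (SD, n = 3 each). This was a ratio of 1.59 and a log2 fold change of 0.65 (SE 0.051, 95% interval 0.54 to 0.77, limma adjusted p = 7.42e-06), the largest change among the 9 tested genes. The recovered fragment numbers behind these values were 2436 to 2773 in control and 5064 to 6256 in CITED2-deficient BMDMs. The *Jun* locus overlaps the antisense transcript *Junos*, and whether the authors counted by strand is not stated, so that reads from both cannot be told apart. *Junos* was listed at 1.60 ± 0.542 FPKM in control and 1.38 ± 0.349 FPKM in CITED2-deficient BMDMs and was not called (limma adjusted p = 0.609).

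*Junb* (ENSMUSG00000052837, chr8:84974484-84978718, minus strand), whose product is a weaker transactivator than c-JUN in many promoters, had the highest level of the 10 genes in every library. It read 137, 134 and 129 FPKM in control replicates 1 to 3, and 170, 169 and 184 FPKM in CITED2-deficient replicates 1 to 3. The groups were separated by a gap wider than the spread within either of them. The means of 133 ± 4.01 and 174 ± 8.49 FPKM (SD, n = 3 each) gave a log2 fold change of 0.38 (SE 0.041, 95% interval 0.29 to 0.48, limma adjusted p = 6.08e-05). The annotated span of *Junb* overlaps *Prdx2*, which was not called (94.1 ± 3.00 and 89.9 ± 6.05 FPKM, limma adjusted p = 0.294).

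*Jund* (ENSMUSG00000071076, chr8:70698949-70700616, plus strand), the third JUN gene, lies on the same chromosome as *Junb*, has 1 exon and overlaps the antisense gene *Gm11175*, which was not analysed here. It went in the opposite direction, with 50.9, 53.9 and 54.2 FPKM in control replicates 1 to 3 and 46.3, 38.7 and 49.0 FPKM in CITED2-deficient replicates 1 to 3. The highest CITED2-deficient library lay just below the lowest control library. The means were 53.0 ± 1.79 and 44.7 ± 5.35 FPKM (SD, n = 3 each), with a log2 fold change of -0.25 (SE 0.077, 95% interval -0.42 to -0.073, limma adjusted p = 0.0245). This call is less firm than those of *Jun* and *Junb*. After median-ratio scaling the log2 fold change of *Jund* was -0.15 and the call was lost (limma adjusted p = 0.153). It was also lost without control replicate 2 (adjusted p = 0.0685 in limma) or without control replicate 3 (adjusted p = 0.0736 in limma). Without CITED2-deficient replicate 2, the lowest library, the log2 fold change was -0.15 and the call was kept (adjusted p = 0.0320 in limma).

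The make-up of the JUN family differed between the genotypes. The FPKM of the 3 JUN genes summed to 231, 233 and 229 in the control libraries and to 282, 278 and 308 in the CITED2-deficient libraries (replicates 1 to 3). Of this sum, *Jun* made up 19.2% ± 0.681 of control (SD, n = 3) and 24.4% ± 0.950 of CITED2-deficient JUN mRNA (SD, n = 3), and the groups did not overlap. The share of *Jund* was 22.1% to 23.7% in control and 13.9% to 16.4% in CITED2-deficient libraries. The share of *Junb*, the major JUN transcript in both groups, was 56.3% to 59.2% and 59.7% to 60.8%, respectively. The ratio of *Jun* to *Jund* was below 1 in all control libraries (0.820 to 0.847) and above 1 in all CITED2-deficient libraries (1.43 to 1.82). Such ratios within a library do not depend on the scaling between libraries. The ratios and shares were chosen after the values had been seen and are given without a test. The sums and shares rest on the transcript length behind each FPKM, as described below for the order of levels.

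*Fos* (ENSMUSG00000021250, chr12:85473890-85477273, plus strand) encodes c-FOS, the prototype immediate early protein. It was lower in CITED2-deficient BMDMs, with 47.2, 46.3 and 47.3 FPKM in control replicates 1 to 3 and 29.8, 32.8 and 31.6 FPKM in CITED2-deficient replicates 1 to 3. The control libraries lay close together and well above all CITED2-deficient libraries. The means were 47.0 ± 0.536 and 31.4 ± 1.49 FPKM (SD, n = 3 each), a ratio of 0.669. The log2 fold change was -0.57 (SE 0.044, 95% interval -0.67 to -0.47, limma adjusted p = 7.47e-06), the largest decrease among the 9 tested genes. *Fos* was represented by 875 to 979 fragments per control library and 809 to 900 per CITED2-deficient library, although the latter held on average 1.34 times as many fragments in all. After median-ratio scaling the log2 fold change was -0.47 (limma adjusted p = 3.54e-05). 

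*Fosl2* (ENSMUSG00000029135, chr5:32135801-32157842, plus strand) encodes FRA-2, a FOS protein that lacks the strong transactivation domain of c-FOS. Its values were 11.0, 9.70 and 11.4 FPKM in control replicates 1 to 3 and 13.6, 11.8 and 12.3 FPKM in CITED2-deficient replicates 1 to 3. The lowest CITED2-deficient library lay just above the highest control library. The means of 10.7 ± 0.882 and 12.6 ± 0.932 FPKM (SD, n = 3 each) gave a log2 fold change of 0.22 (SE 0.078, 95% interval 0.039 to 0.39, limma adjusted p = 0.0445). This call lies close to the threshold. In limma it was lost without control replicate 1 (adjusted p = 0.0684) or control replicate 2 (adjusted p = 0.135), and without CITED2-deficient replicate 1 (adjusted p = 0.145) or CITED2-deficient replicate 3 (adjusted p = 0.0779). With median-ratio scaling the log2 fold change of *Fosl2* was 0.31 (limma adjusted p = 0.00799).

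*Fosb* (ENSMUSG00000003545, chr7:19302696-19310051, minus strand), another immediate early FOS gene, was barely detected. It read 0.178, 0.248 and 0.0968 FPKM in control replicates 1 to 3 and 0.108, 0.257 and 0.152 FPKM in CITED2-deficient replicates 1 to 3, which correspond to 6 to 14 and 9 to 19 fragments. The groups overlapped, and with no filter on low values the log2 fold change was -0.0019 (95% interval -0.17 to 0.17, limma adjusted p = 0.987). A difference was not detectable at this depth.

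The composition of the FOS family differed as well. The FPKM of the 3 FOS genes summed to 58.4, 56.3 and 58.8 in the control libraries and to 43.6, 44.9 and 44.0 in the CITED2-deficient libraries (replicates 1 to 3). *Fos* accounted for 80.5% to 82.3% of this sum in the control libraries and for 68.5% to 73.1% in the CITED2-deficient libraries. *Fosl2* accounted for 17.2% to 19.4% and 26.3% to 31.3%, respectively, and *Fosb* for under 1% in every library. JUN family mRNA exceeded FOS family mRNA 3.89-fold to 4.13-fold in control and 6.19-fold to 7.00-fold in CITED2-deficient libraries. These sums and shares, and the fold of the sums between the groups, rest on the transcript length behind each FPKM. For the prototype pair, the ratio of *Jun* to *Fos* was 0.913, 0.953 and 0.970 in control BMDMs, but 2.21, 2.14 and 2.38 in CITED2-deficient BMDMs (replicates 1 to 3), with means of 0.945 ± 0.0293 and 2.24 ± 0.123 (SD, n = 3 each). The absolute value of this ratio depends on the transcript length behind each FPKM, and so does its change from below 1 to above 1, as described below for the order of levels, whereas the fold between the groups does not. These ratios too were chosen after the values had been seen, and they concern mRNA, not protein or dimers.

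**Figure D2:**
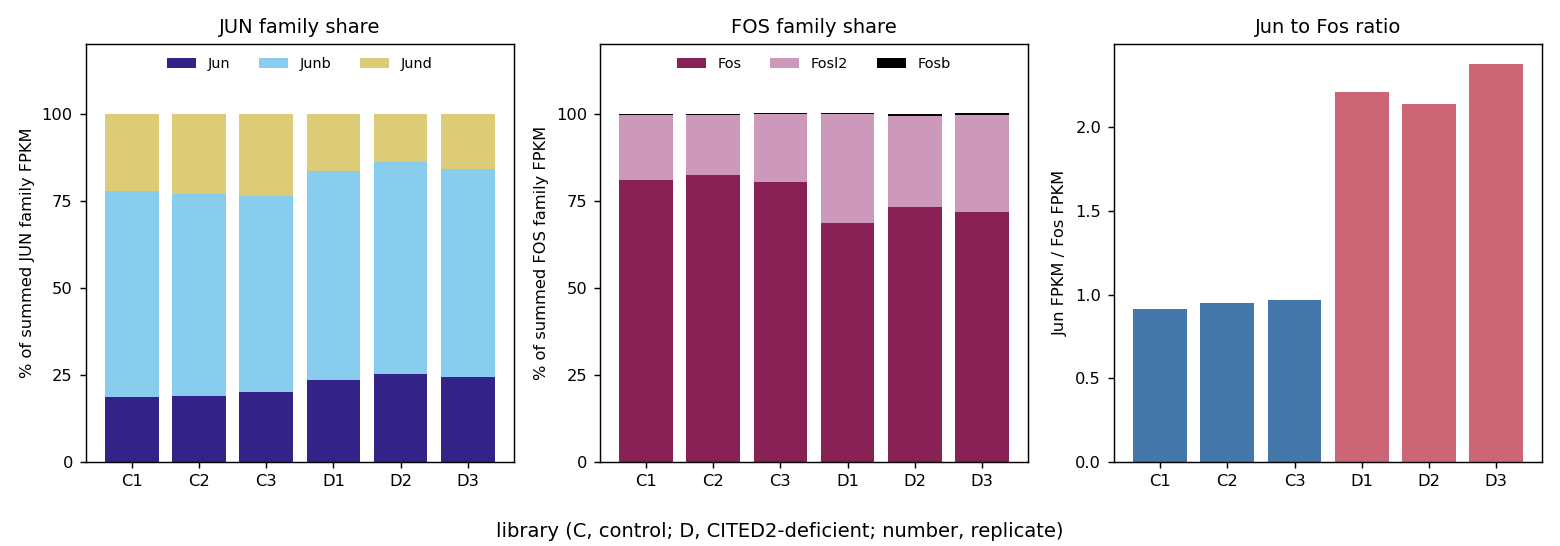
Left and middle, share in percent of the summed JUN family and FOS family FPKM taken by each gene, and right, the ratio of *Jun* FPKM to *Fos* FPKM, in each library (C, control; D, CITED2-deficient; the number is the replicate). The *Jund* share is at most 16.4% and the *Fos* share at most 73.1% in the CITED2-deficient libraries, and the *Jun* to *Fos* ratio is 0.913 to 0.970 in control and 2.14 to 2.38 in CITED2-deficient libraries.

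*Batf3* (ENSMUSG00000026630, chr1:191097847-191108945, plus strand) encodes a small basic leucine zipper protein that pairs with JUN proteins. It read 4.37, 4.93 and 4.50 FPKM in control replicates 1 to 3 and 4.37, 4.61 and 2.80 FPKM in CITED2-deficient replicates 1 to 3. Only CITED2-deficient replicate 3 was lower, and the other two lay within the control range. The means were 4.60 ± 0.295 and 3.93 ± 0.984 FPKM (SD, n = 3 each), and the log2 fold change of -0.20 (95% interval -0.53 to 0.13, limma adjusted p = 0.271) was not called. Its short annotated length leaves only 54 to 82 fragments per library. Of the cDC1 markers beside which *Batf3* is usually seen, 5 of 8 were below the filter (*Xcr1*, *Clec9a*, *Itgae*, *Zbtb46* and *Flt3*). *Tlr3* was higher (log2 fold change 1.16, limma adjusted p = 8.42e-07), and *Cadm1* was lower (-0.35, limma adjusted p = 9.74e-05). The summed FPKM of the cDC1 list was 324 to 332 in control and 300 to 316 in CITED2-deficient libraries, and nearly all of it came from *Irf8* and *Cadm1*. Of the markers below the filter, *Clec9a* read 0.429 ± 0.183 and 1.21 ± 0.182 FPKM (SD, n = 3 each, limma adjusted p = 0.0112 with no filter) and *Xcr1* 0.0158 ± 0.0182 and 0.102 ± 0.0116 FPKM (SD, n = 3 each, limma adjusted p = 0.0418 with no filter), so that their groups did not overlap and were higher in CITED2-deficient BMDMs, at low levels. The groups of the other markers below the filter, *Itgae*, *Zbtb46* and *Flt3*, overlapped. *Irf8* was tested and not called (log2 fold change -0.023, limma adjusted p = 0.634). The part of cDC1 cells in the level of *Batf3* was not tested.

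*Egr2* (ENSMUSG00000037868, chr10:67535475-67542188, plus strand), a zinc finger factor encoded on the same chromosome as *Cited2*, was higher in CITED2-deficient BMDMs. It read 20.8, 17.1 and 20.2 FPKM in control replicates 1 to 3 and 27.8, 28.7 and 30.3 FPKM in CITED2-deficient replicates 1 to 3. All CITED2-deficient values were above all control values. The means of 19.4 ± 2.00 and 28.9 ± 1.26 FPKM (SD, n = 3 each) stood at a ratio of 1.49, with a log2 fold change of 0.56 (SE 0.074, 95% interval 0.39 to 0.73, limma adjusted p = 0.000227). *Egr2* was represented by 462 to 616 fragments in control and 1015 to 1237 fragments in CITED2-deficient libraries.

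*Egr1* (ENSMUSG00000038418, chr18:34859823-34864984, plus strand), often the more strongly induced EGR gene after stimulation, was expressed at a low level in these resting cells. It read 2.65, 2.42 and 2.85 FPKM in control replicates 1 to 3 and 2.67, 2.51 and 2.26 FPKM in CITED2-deficient replicates 1 to 3. The groups overlapped, with means of 2.64 ± 0.217 and 2.48 ± 0.205 FPKM (SD, n = 3 each). The log2 fold change was -0.063 (95% interval -0.30 to 0.18, limma adjusted p = 0.643), and with median-ratio scaling its sign turned, to 0.011 (limma adjusted p = 0.944). The interval of *Egr1* does not reach the log2 fold change of *Egr2*, 0.56, although the difference between their changes was not tested. The ratio of *Egr2* to *Egr1* was 7.88, 7.07 and 7.08 in control BMDMs, but 10.4, 11.5 and 13.4 in CITED2-deficient BMDMs (replicates 1 to 3).

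*Ier2* (ENSMUSG00000053560, chr8:84661331-84662852, minus strand) is an immediate early gene of 1 exon whose nuclear product is less well characterized. It read 22.5, 23.1 and 22.7 FPKM in control replicates 1 to 3 and 19.4, 19.1 and 18.8 FPKM in CITED2-deficient replicates 1 to 3. The replicates were tight and the groups well apart, although the difference is small. The means were 22.8 ± 0.309 and 19.1 ± 0.333 FPKM (SD, n = 3 each), with a log2 fold change of -0.24 (SE 0.044, 95% interval -0.34 to -0.14, limma adjusted p = 0.00165). After median-ratio scaling it was -0.14 (limma adjusted p = 0.0270), a smaller decrease once the shift of all genes is taken out.

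**Figure D3:**
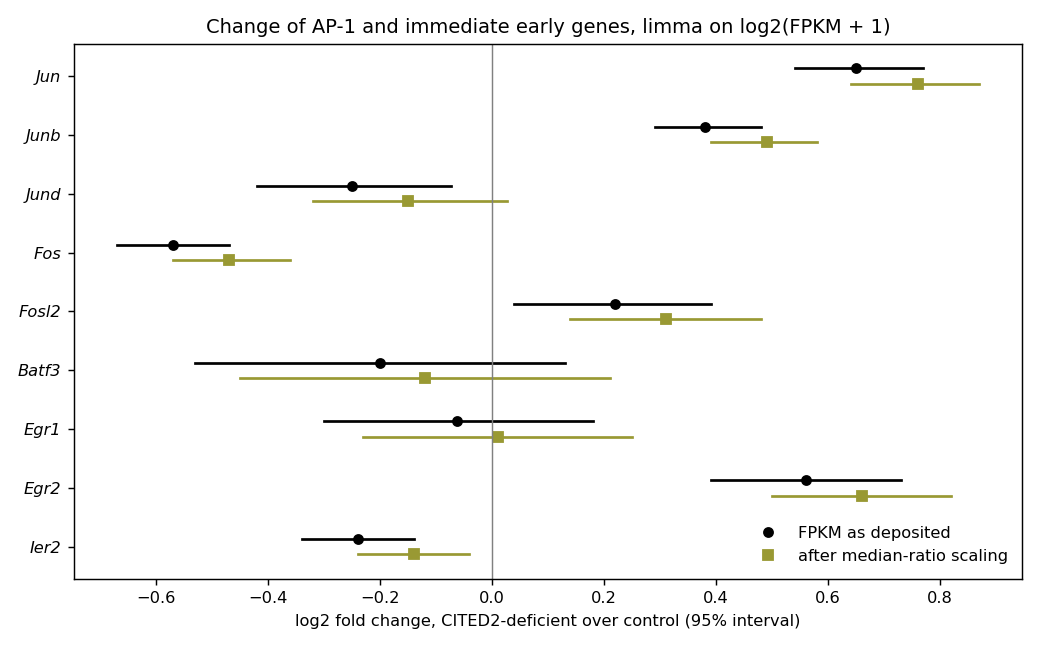
Log2 fold change, CITED2-deficient over control (horizontal axis), of the 9 tested genes with 95% intervals from limma, as deposited (black circles) and after median-ratio scaling (olive squares). *Jun*, *Junb*, *Egr2* and *Fosl2* lie to the right of 0 and *Fos* and *Ier2* to the left under both scalings, whereas the interval of *Jund* includes 0 after scaling and those of *Batf3* and *Egr1* include it under both.

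In control BMDMs the mean levels in FPKM followed the order *Junb*, *Jund*, *Fos*, *Jun*, *Ier2*, *Egr2*, *Fosl2*, *Batf3*, *Egr1* and *Fosb*, from 133 to 0.174 FPKM, and no neighbors in this order overlapped in their libraries. In CITED2-deficient BMDMs the order was *Junb*, *Jun*, *Jund*, *Fos*, *Egr2*, *Ier2*, *Fosl2*, *Batf3*, *Egr1* and *Fosb*, from 174 to 0.173 FPKM, and only *Fos* and *Egr2* overlapped. *Jun* thus passed *Jund* and *Fos*, and *Egr2* passed *Ier2*. Comparisons between genes rest on the lengths used for FPKM, which matched the mean length of all annotated transcripts of a gene, 1092 bases for *Fos* against 3189 bases for the single *Jun* transcript. With the longest *Fos* transcript (2108 bases) the level of *Fos* would be 24.3 FPKM in control and 16.3 FPKM in CITED2-deficient BMDMs, below *Jun* in both groups. The corresponding levels of *Egr2* would be 10.2 and 15.3 FPKM, below *Ier2* in both groups. *Jun*, *Jund* and *Ier2* have a single transcript each, so the crossing of *Jun* and *Jund* does not depend on this choice.

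The remaining basic leucine zipper genes of the extended AP-1 family also moved in both directions. Of 12 genes, all of them tested, 4 were higher, 4 were lower and 4 were not called. Their median log2 fold change was 0.068, beside -0.10 over all tested genes. The counts of this list and of those below stand beside 51.3% of all tested genes called, 16.7% as higher and 34.6% as lower. All lists were chosen with earlier results of these data known. *Atf3*, a stress-induced repressor that pairs with JUN proteins, read 188, 206 and 188 FPKM in control replicates 1 to 3 and 302, 303 and 315 FPKM in CITED2-deficient replicates 1 to 3 (log2 fold change 0.66, SE 0.041, limma adjusted p = 1.63e-06). Its FPKM exceeded those of all 10 genes in every library. *Batf2*, an interferon-induced partner of JUN proteins, was higher by 1.01 on the log2 scale (limma adjusted p = 3.89e-05). *Fosl1*, the gene of FRA-1, rose from 1.62 ± 0.410 to 3.01 ± 0.456 FPKM (SD, n = 3 each, limma adjusted p = 0.00714), and *Mafk*, a small MAF gene, rose from 20.5 ± 0.248 to 29.6 ± 0.597 FPKM (SD, n = 3 each, limma adjusted p = 1.18e-05). *Maf*, a large MAF factor of macrophages, fell from 162 ± 2.69 to 93.8 ± 2.12 FPKM (SD, n = 3 each, limma adjusted p = 8.1e-08). With median-ratio scaling 5 of the 12 genes were higher and 3 lower, and without CITED2-deficient replicate 1, a library described below, 5 were higher and 4 lower.

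Among 34 other immediate early genes, 33 were listed and 30 were tested. Of these, 15 were higher, 6 were lower and 9 were not called, with a median log2 fold change of 0.20 beside -0.10 over all tested genes. *Ctgf* and *Cyr61*, secreted matricellular proteins, had the largest increases, with log2 fold changes of 1.63 (SE 0.12, limma adjusted p = 4.77e-06) and 1.37 (SE 0.11, limma adjusted p = 7.42e-06). *Plk2*, a polo-like kinase, read 122, 127 and 123 FPKM in control replicates 1 to 3 and 255, 281 and 276 FPKM in CITED2-deficient replicates 1 to 3. *Dusp1*, a phosphatase that inactivates JNK and p38 kinases, rose from 18.2 ± 2.59 to 37.5 ± 0.355 FPKM (SD, n = 3 each, limma adjusted p = 1.56e-05). *Nr4a1*, an orphan nuclear receptor, had the largest decrease, with 5.27, 5.95 and 5.29 FPKM in control replicates 1 to 3 and 2.04, 1.84 and 1.81 FPKM in CITED2-deficient replicates 1 to 3. Counts of 16 higher and 6 lower genes were obtained with median-ratio scaling. One of the higher genes, *Egr3* (0.789 and 1.90 FPKM on average), passed the filter only through the CITED2-deficient libraries. *Ctgf* and *Cyr61* are also made by stromal cells. Both were highest in CITED2-deficient replicate 1 (46.6 FPKM of *Ctgf*, against 32.5 and 35.3 in the other CITED2-deficient replicates). Without that library their log2 fold changes were 1.48 and 1.25, and the counts over the list remained 15 and 6. The summed stromal markers described below were also higher in CITED2-deficient replicates 2 and 3 (172 and 173 FPKM) than in control (42.6 to 51.1 FPKM). The part of stromal cells in the levels of *Ctgf* and *Cyr61* was not tested.

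**Figure D4:**
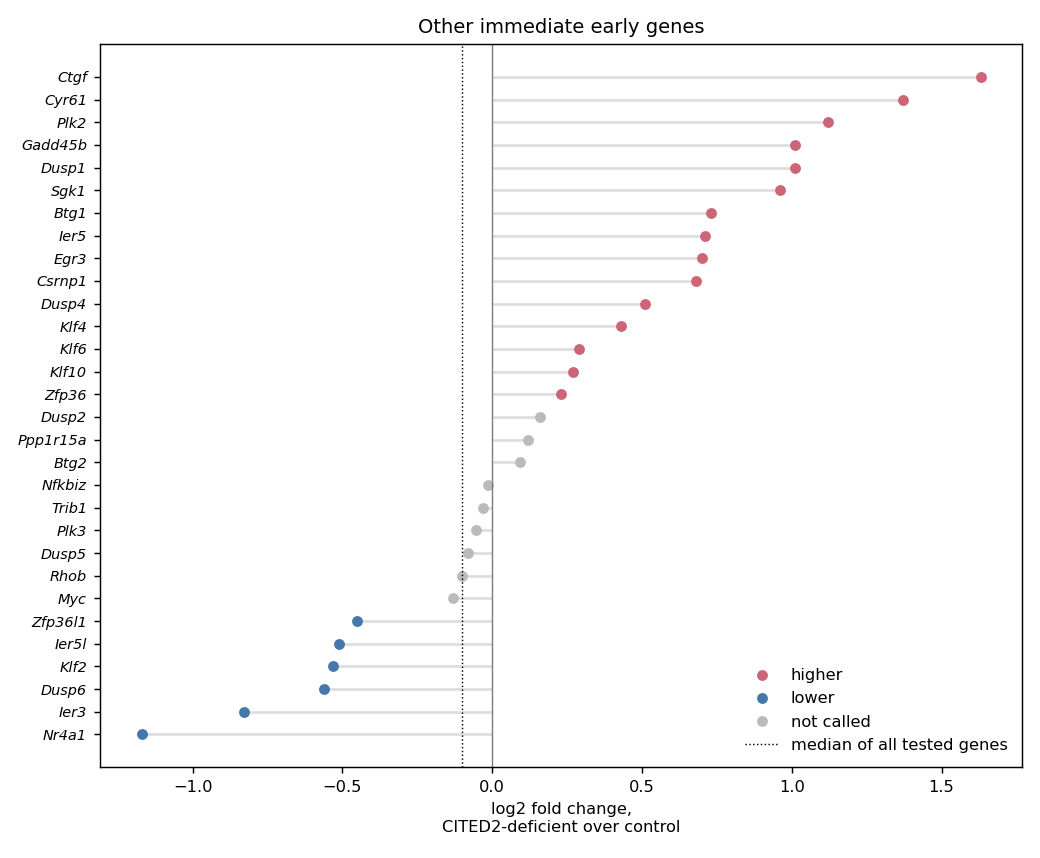
Log2 fold change, CITED2-deficient over control (horizontal axis), of the 30 tested genes among the other immediate early genes, colored by limma call (red higher, blue lower, gray not called), with a dotted line at the median of all tested genes, -0.10. The plot shows 15 genes higher and 6 lower, from 1.63 for *Ctgf* to -1.17 for *Nr4a1*.

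Upstream of these genes, 21 of 22 genes for SRF, its cofactors and the MAP kinase cascades were tested. Of these, 3 were higher, 7 were lower and 11 were not called, with a median log2 fold change of -0.073, close to the -0.10 over all tested genes. *Srf* itself was not called (log2 fold change -0.032). *Mkl1* and *Mkl2*, the actin-regulated cofactors of SRF, were higher by 0.33 (limma adjusted p = 0.000466) and 0.38 (limma adjusted p = 0.000386) on the log2 scale. *Mapk14*, the gene of p38-alpha, fell from 95.4 ± 2.07 to 70.8 ± 1.73 FPKM (SD, n = 3 each, limma adjusted p = 9.64e-06). *Map2k7*, a kinase that activates JNK, and *Rps6ka1*, a kinase downstream of ERK, had log2 fold changes of -0.35 (limma adjusted p = 0.000596) and -0.31 (limma adjusted p = 0.000225). The balance of this list rests on the scaling, since 5 genes were higher and 5 lower after median-ratio scaling.

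Of 10 EGR corepressors and AP-1 coregulators, 5 were higher, 2 were lower and 3 were not called. Their median log2 fold change was 0.14, beside -0.10 over all tested genes, and 70.0% were called, beside 51.3%. The NAB proteins, which bind EGR factors and restrain them, split. *Nab1* rose from 40.1 ± 2.31 to 46.7 ± 0.438 FPKM (SD, n = 3 each, limma adjusted p = 0.00423), and *Nab2* fell from 33.8 ± 2.00 to 25.4 ± 2.33 FPKM (SD, n = 3 each, limma adjusted p = 0.00136). *Ep300*, the gene of the coactivator p300, to which CITED2 binds, was higher by 0.20 on the log2 scale (limma adjusted p = 0.00863). *Crebbp*, the gene of CBP, which CITED2 also binds, was not called (log2 fold change -0.065, limma adjusted p = 0.336). *Hdac3*, a histone deacetylase of corepressor complexes, had a log2 fold change of -0.27 (limma adjusted p = 0.00377). Counts of 7 higher and 2 lower genes were obtained with median-ratio scaling.

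Genes that are commonly cited as targets of AP-1 or EGR factors, 16 in number, were mostly higher. Of the 15 tested, 11 were higher, 3 were lower and 1 was not called, with a median log2 fold change of 0.41 beside -0.10 over all tested genes. *Mmp13*, a collagenase with a classical AP-1 site, read 4.49, 3.29 and 3.04 FPKM in control replicates 1 to 3 and 30.7, 35.4 and 34.3 FPKM in CITED2-deficient replicates 1 to 3 (log2 fold change 2.91, limma adjusted p = 7.1e-08). *Timp1*, an inhibitor of metalloproteinases, was higher by 1.40 on the log2 scale (limma adjusted p = 2.25e-05). *Ptgs2*, the inducible cyclooxygenase, read 0.388 ± 0.144 and 1.98 ± 0.0946 FPKM (SD, n = 3 each, limma adjusted p = 0.000190), and the chemokine gene *Ccl2* was higher by 0.91 (limma adjusted p = 0.000197). *Ptgs2* passed the filter only through the CITED2-deficient libraries, in which it is high, so its call is in part set by the filter. The listed genes answer to other factors as well, and several were named by the study from these libraries. With median-ratio scaling, and also without CITED2-deficient replicate 1, 11 genes were higher and 2 lower. *Timp1* was highest in that library (22.1 FPKM), and without it its log2 fold change was 1.24, while that of *Mmp13* was 2.97.

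Factors that act on mRNAs with AU-rich elements, a feature of immediate early mRNAs, were mostly not called. Of 9 tested genes, *Zfp36* (tristetraprolin) rose from 78.4 ± 2.29 to 92.3 ± 4.47 FPKM (SD, n = 3 each, limma adjusted p = 0.00163), *Zfp36l1* fell from 152 ± 3.27 to 111 ± 6.51 FPKM (SD, n = 3 each, limma adjusted p = 3.5e-05), and 7 were not called, with a median log2 fold change of -0.038. With median-ratio scaling 3 were higher and 1 was lower. Of 9 tested heat shock genes, which like immediate early genes respond to handling of cells, 4 were higher and 5 were not called, with a median log2 fold change of -0.024. The largest was *Hspb1*, at 1.03 ± 0.0162 and 3.45 ± 0.943 FPKM (SD, n = 3 each, limma adjusted p = 0.000359). *Hspa1b*, *Hsph1* and *Hsp90aa1* had log2 fold changes of 0.67, 0.26 and 0.078, respectively. *Hspa1b* passed the filter only through the CITED2-deficient libraries, and the call of *Hsp90aa1* was lost without CITED2-deficient replicate 1 (adjusted p = 0.125 in limma). The summed FPKM of the heat shock list was 1083 to 1105 in control and 1067 to 1111 in CITED2-deficient libraries. Most of this sum came from *Hspa8* and *Hsp90aa1*, so changes of weakly expressed members such as *Hspb1* and *Hspa1b* barely enter it. The part of handling in the levels of the 10 genes was not tested.

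The cell type markers moved as follows. *Adgre1* and *Csf1r*, which define macrophages, were abundant in all libraries (2214 ± 20.9 and 1135 ± 12.5 FPKM in control, 1776 ± 34.9 and 916 ± 10.5 FPKM in CITED2-deficient BMDMs, SD, n = 3 each). Of 8 macrophage markers, 5 were lower, 1 was higher (*Fcgr1*) and 2 were not called, and their summed FPKM was 5624 to 5694 in control and 5287 to 5367 in CITED2-deficient libraries. The lower ones were *Lyz2* (log2 fold change -1.59), *Itgam*, *Adgre1*, *Csf1r* and *Mertk*, and after median-ratio scaling 5 were lower and 3 higher. All 7 tested fibroblast or stromal markers of 9 were higher, although *Postn* and *Pdgfrb* passed the filter only through the CITED2-deficient libraries, and the groups of *Lum* and *Thy1*, below the filter, overlapped. The list had summed FPKM of 42.6 to 51.1 in control libraries and 547, 172 and 173 in CITED2-deficient replicates 1 to 3, so that the first of these libraries stands apart. *Col1a1*, a collagen gene, read 15.5, 14.2 and 16.6 FPKM in control and 305, 62.0 and 62.6 FPKM in CITED2-deficient replicates 1 to 3. No listed gene of these marker lists was at 0 in all 6 libraries, and *Cma1* of the mast cell list was not analysed here. Of 6 tested granulocyte markers of 8, *Mpo* (-2.54), *Elane* (-2.08), *Camp* (-0.99) and *S100a8* (-0.40) were lower on the log2 scale and *Ltf* was higher (0.90), with sums of 590 to 635 FPKM in control and 545 to 658 FPKM in CITED2-deficient libraries. B cell markers (2.14 to 3.29 and 2.07 to 2.82 FPKM in sum), T and NK cell markers (0.0728 to 0.481 and 0.169 to 0.866 FPKM) and mast cell and basophil markers (2.38 to 2.87 and 1.39 to 1.80 FPKM) were near 0 in both groups. In bulk RNA, fewer cells of a type and less RNA per cell cannot be told apart.

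The values of the 10 genes in CITED2-deficient replicate 1, the library with the most stromal marker RNA, were mixed. *Jun* and *Egr2* were lowest of the CITED2-deficient group in replicate 1 (66.0 and 27.8 FPKM), and *Junb* was at 170 FPKM there against 169 and 184 FPKM. *Fos* was lowest in this library and *Fosl2* was highest (29.8 and 13.6 FPKM). Without it, 6 of the 10 genes were called, and the one lost was *Fosl2*. The part of other cell types in these levels was not tested.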

How the data were processed

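The submitters' labels placed the 6 BMDM libraries in the control and CITED2-deficient groups (3 each). The authors removed ribosomal RNA, made stranded libraries, mapped reads to mm10 with STAR and deposited FPKM per gene and library from Cuffdiff with the GENCODE annotation. For tool versions and the annotation release, the sources used here give nothing. FPKM are relative values, so strongly changed genes shift the others, and length enters every comparison between genes. The table holds no counts, but division by the mean transcript length in GENCODE vM21 let 21374 of 22239 matched genes (96.1%) be written as whole fragments in every library, with a tolerance of 0.02. Within groups the libraries differed by more than sampling noise (mean chi-square per gene 2.31 to 6.41), so none was counted as a duplicate.

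The FPKM were tested by limma 3.58.1 (R 4.3.3), using a variance trend, a pseudocount of 1, a minimum mean FPKM of 1 and Benjamini-Hochberg adjustment. With 3 against 3 libraries an exact permutation test cannot go below p = 0.100, so none was used. The code was tested on simulated data. All 10 genes, *Cited2* and, of each list, at most the 5 called genes with the largest changes were named by rule. *Srf*, *Mertk*, *Junos*, *Prdx2*, *Egr3*, *Irf8*, *Lum*, *Thy1* and the cDC1 markers below the filter were added after their values had been seen, and certain genes that the rule picks are not reported here. The genes and the gene lists were chosen with earlier results of these data known. Promoter windows came from RefSeq (GRCm38.p6). The search of the 10 genes left out chr18, on which *Egr1* lies, and no window of *Ier2* was found. Alternatives were pseudocounts of 0.1 and 0.5, no filter or a minimum of 5, median-ratio and quantile scaling, limma without its trend or with array weights, omission of each library, a block for the replicate number, and a fold change of at least 2. Limma-voom on the recovered fragments, which called 6178 genes, also with median-ratio library sizes (5417 genes), was chosen after the data had been seen.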

Additional observations from a re-analysis of the deposited data

How the results depend on the processing

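*Fos*, *Jun*, *Junb*, *Egr2* and *Cited2* kept their direction and their call in the 17 alternatives other than the fold threshold, at log2 fold changes of -0.60 to -0.47 (*Fos*), 0.61 to 0.77 (*Jun*), 0.34 to 0.49 (*Junb*), 0.48 to 0.68 (*Egr2*) and -3.24 to -2.99 (*Cited2*). In limma, the call of *Fosl2* was lost in 7 alternatives, among them no filter (adjusted p = 0.0967), no trend (0.0601) and array weights (0.0542). That of *Jund* was lost in 7, among them median-ratio scaling (0.153), quantile normalization (0.0645), no filter (0.0765), no trend (0.0638) and limma-voom with median-ratio library sizes (0.0750). That of *Ier2* was lost only in the last of these (log2 fold change -0.15, adjusted p = 0.0544), and *Batf3* was called in none (-0.31 to -0.027). *Egr1*, not called in any, turned from -0.063 to 0.011 with median-ratio scaling and to 0.0089 with limma-voom and median-ratio library sizes. The causes of these lost calls and turned signs were not tested. Under a fold change of at least 2, limma called 615 of all tested genes and 0 of the 10, by the construction of that threshold. With each library left out in turn, 5211 to 5475 genes and 5 to 7 of the 10 were called, and the log2 fold change of *Cited2* was -3.19 to -3.03. The labels tie same-numbered libraries of both groups by the number alone. Correlations of their deviations were 0.00784 to 0.0402, beside -0.0521 to 0.0354 for other pairs, and whether they shared a batch was not tested. With the replicate block 5708 genes and 7 of the 10 were called. Depth limits *Fosb* (6 to 19 fragments per library) and *Batf3* (54 to 82).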
